A study of Homo sapiens with 60 samples.

Results

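Inflammatory chemokines and NF-kB feedback genes are described here as a list of 10 genes set by name: CXCL8, CXCL1, CXCL2, CXCL3, CCL2, IL6, LIF, NFKBIA, TNFAIP2 and TNFAIP3. They are 10 of the 60675 gene rows of the deposited table. A gene was kept where it reached 1 CPM (counts scaled to library size, with TMM factors between libraries) in at least 1 of 60 libraries. CXCL1, a neutrophil chemokine, stayed between 0.0646 and 0.802 CPM and was dropped, which left 9 genes. CXCL2 reached 1 CPM in 11 libraries and CXCL3 in 5, and the other 7 genes reached it in all 60. All of these CXCL2 and CXCL3 libraries were at high dose. With vehicle and at low and medium dose CXCL2 was at most 0.8339 CPM and CXCL3 at most 0.7248 CPM. Both genes were kept only through high-dose libraries, so their rises toward high dose are not independent of the filter.

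NF-kB transcription factors are held in the cytoplasm by inhibitor proteins such as IkB alpha, the product of NFKBIA. Signals from cytokine and pattern receptors activate the IkB kinase, the inhibitor is degraded, and the freed dimers bind kappaB sites in the promoters of chemokine and cytokine genes. NFKBIA and TNFAIP3, which encodes the ubiquitin-editing protein A20, are themselves NF-kB targets and limit the response, whereas TNFAIP2 is a TNF-induced gene that encodes a protein of membrane protrusions. CXCL8, CXCL1, CXCL2 and CXCL3 attract neutrophils, CCL2 attracts monocytes, and IL6 and LIF signal through gp130 to STAT3; astrocytoma cells are a known source of several of them.

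RefSeq promoter entries were found for 8 of the 10 genes; LIF and CCL2 are named only. The stretches below, read from the RefSeq table of build GRCh38.p14, give the 140 bases before the annotated transcription start of 7 kept genes, since kappaB sites are the feature these genes are known for. They are CXCL8, chr4:73740429-73740568, plus strand; CXCL2, chr4:74099196-74099335, minus strand; CXCL3, chr4:74038690-74038829, minus strand; IL6, chr7:22727060-22727199, plus strand; NFKBIA, chr14:35404750-35404889, minus strand; TNFAIP3, chr6:137867119-137867258, plus strand; and TNFAIP2, chr14:103123321-103123460, plus strand. Each is written 5′ to 3′ along the gene, and capitals mark matches on either strand to the kappaB consensus or to GGNNTTTCC, which overlap.
CXCL8: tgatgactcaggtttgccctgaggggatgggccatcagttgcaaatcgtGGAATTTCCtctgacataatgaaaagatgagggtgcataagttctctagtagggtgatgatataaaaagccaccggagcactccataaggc
CXCL2: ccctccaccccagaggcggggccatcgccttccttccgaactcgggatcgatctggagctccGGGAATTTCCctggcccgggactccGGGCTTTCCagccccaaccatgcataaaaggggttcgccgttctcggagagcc
CXCL3: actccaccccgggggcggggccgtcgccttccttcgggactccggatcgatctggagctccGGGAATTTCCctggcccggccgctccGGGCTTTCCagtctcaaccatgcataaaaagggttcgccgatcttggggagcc
IL6: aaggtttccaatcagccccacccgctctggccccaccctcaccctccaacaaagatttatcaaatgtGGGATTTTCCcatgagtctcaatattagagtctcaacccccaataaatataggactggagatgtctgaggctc
NFKBIA: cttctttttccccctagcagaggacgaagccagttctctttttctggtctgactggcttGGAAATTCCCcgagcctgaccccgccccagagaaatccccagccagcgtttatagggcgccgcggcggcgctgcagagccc
TNFAIP3: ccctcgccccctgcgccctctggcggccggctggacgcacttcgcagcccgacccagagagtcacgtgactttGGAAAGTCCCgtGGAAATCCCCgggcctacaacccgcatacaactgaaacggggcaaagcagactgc
TNFAIP2: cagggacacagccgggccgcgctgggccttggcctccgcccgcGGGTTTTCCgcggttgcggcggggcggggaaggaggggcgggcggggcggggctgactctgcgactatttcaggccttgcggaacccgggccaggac

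In the 300 bases of each entry, from 250 before to 50 after the start, the kappaB consensus was present in 6 of 8 of these promoters and in 7.73% of 35116 promoters of that length, both strands searched. GGNNTTTCC, a motif chosen after the promoters had been read, was present in 8 of 8 and in 6.26%. The AP-1 motif TGANTCA was found in CXCL8 alone among the 8, as TGACTCA with its first base 137 bases before the start, against 7.71% of all promoters. CXCL8 was also the only one with TATAAA on the gene strand, a motif found in 7.33%. A match is a description of these letters and not a measured binding site. Over the printed length the CXCL2 and CXCL3 stretches were 87.9% identical, and both hold a kappaB consensus match and a nearer GGGCTTTCC. The dropped gene CXCL1 was 91.5% identical to CXCL2 (129 of 141 aligned columns), whereas no pair outside these 3 genes exceeded 55.3%.

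RNA came from SW1783, an established human astrocytoma line, after 24 h with an ethanol extract or with the solvent DMSO alone. The single herbs were Menthae Herba, Saposhnikoviae Radix, Aucklandiae Radix and Polygalae Radix, and the formulas of several herbs Guibi-tang, Saengmaek-san, Okbyeongpung-san and Soyo-san. High, medium and low doses were 500, 100 and 20 µg/mL, except for Aucklandiae Radix (160, 32 and 6.4 µg/mL) and Polygalae Radix (30, 6 and 1.2 µg/mL). Per the series text, an extract whose IC20 lay under 500 µg/mL was given at its IC20 and at dilutions of it, so doses are not matched between extracts. The vehicle had 3 libraries. Okbyeongpung-san had 1 library a dose, Soyo-san, Polygalae Radix and Aucklandiae Radix had 2, and the other extracts had 3. The vehicle's DMSO share is 0.1% in the sample records and 2% in the series text. The labels do not say whether replicates were separate cultures, so p-values measure only the spread between these libraries.

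Libraries held 19031094 to 37686975 expected counts. By library name the vehicle libraries form a set of their own and the extracts 4 sets of 2 extracts each, so a difference from vehicle cannot be told apart from a difference between sets, while high and low doses of an extract share a set. In 10 libraries, levels relative to vehicle dropped with transcript length by more than 0.15 log2 units per doubling; they are called length-tilted here. They are the Okbyeongpung-san high-dose library, Menthae Herba high replicate 3, Saposhnikoviae Radix high replicate 2, its low replicates 2 and 3, replicate 2 of Guibi-tang at medium and at low dose, and replicate 1 of Saengmaek-san at all 3 doses. The label of the line was checked on 7 astrocyte markers: GFAP, S100B, AQP4, SLC1A2 and ALDH1L1 were under 1 CPM in every library, SOX9 ranged from 42.66 to 94.78 CPM and SLC1A3 from 7.135 to 33.77 CPM. Of 8 leukocyte markers 4 were under 1 CPM throughout, with CD3E and TYROBP at 0 in all libraries. The sum of the 8 was 196.6 to 208.9 CPM with vehicle, 142.3 to 240.6 at low dose and 49.22 to 314.4 at high dose. CD68 (46.16 to 305 CPM) made nearly all of it. PTPRC ranged from 0.5471 to 11.86 CPM, CSF1R from 1.076 to 6.503 CPM and CD14 from 0.03906 to 1.054 CPM. All 4 epithelial markers were under 1 CPM throughout. The sum of 5 genes of glioma and mesenchymal lines, mostly VIM and CD44, was 9173 to 9303 CPM with vehicle, 8509 to 10420 at low dose and 1870 to 9821 at high dose. Of 5 neuron markers the sum, mostly SNAP25 and SYT1, was 54.57 to 57.57 CPM with vehicle, 46.33 to 60.11 at low and 24.32 to 54.01 at high dose, and of 5 endothelial markers, mostly KDR, it was 37 to 41.91, 19.95 to 41.29 and 11.79 to 50.47 CPM, with VWF and CDH5 under 1 CPM throughout. The part of these levels in the results below was not tested, and less RNA per cell cannot be told apart from fewer cells.

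The change from low to high dose within an extract was the main comparison. Here rose and fell are used for genes past an adjusted p of 0.05 in edgeR's quasi-likelihood test, with Benjamini-Hochberg adjustment over 18601 genes. With Guibi-tang 8 of the 9 genes passed, beside 50.9% of all genes tested: CXCL8, CXCL2, CXCL3, IL6, LIF and NFKBIA rose, and CCL2 and TNFAIP2 fell. With Polygalae Radix 5 passed, beside 45.4% of all genes: IL6, LIF, NFKBIA and TNFAIP3 rose and CCL2 fell. With Menthae Herba 5 passed, beside 13.8%: CXCL2, CXCL3 and IL6 rose, and CCL2 and TNFAIP2 fell. With Saengmaek-san 4 passed, beside 4.88%: CXCL8 and LIF rose, and CCL2 and TNFAIP2 fell. With Aucklandiae Radix 3 passed, beside 22.8%: CXCL8 and LIF rose and TNFAIP2 fell. LIF alone rose with Saposhnikoviae Radix, beside 0.156% of all genes, and CCL2 alone fell with Soyo-san, beside 0.328%. For Polygalae Radix the share among the 9 was near that of all genes; for Guibi-tang it was higher than an all-gene share that was itself the largest of the 7 extracts. The median log2 change of the 9 genes was 0.92 for Guibi-tang and 0.62 for Polygalae Radix, where the median of all genes was 0.01 and 0.03. For the other 5 extracts it lay between -0.03 and 0.35, and the all-gene median between -0.01 and 0.04. These counts and medians include CXCL2 and CXCL3, which were kept only through high-dose libraries. The Guibi-tang median of 0.92 is the CXCL2 value.

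**Figure D1:**
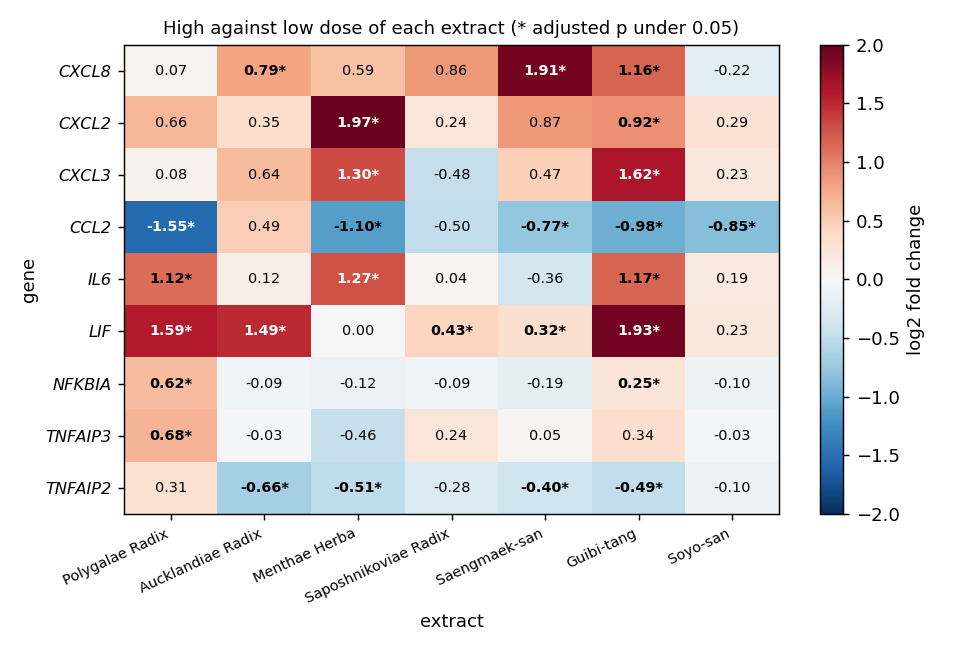
Log2 fold change from low to high dose, as colour and number, of each of the 9 genes (rows) in each of 7 extracts (columns); an asterisk marks an adjusted p under 0.05. CCL2 is below 0 in 6 of 7 extracts, while LIF reaches 1.93 with Guibi-tang, 1.59 with Polygalae Radix and 1.49 with Aucklandiae Radix.

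CXCL8, also known as interleukin 8, was highest with the formula Saengmaek-san. Vehicle libraries had 4.015, 2.961 and 3.305 CPM, Saengmaek-san low-dose libraries 4.138, 3.171 and 4.38 CPM, and high-dose libraries 12.25, 14.07 and 17.69 CPM. Every high-dose library stood above every low-dose and vehicle library, and the rise over low dose was 1.91 on the log2 scale (SE 0.21, adjusted p = 4.8e-08, edgeR). With Guibi-tang the high-dose libraries had 9.501, 10.15 and 9.731 CPM against 3.997, 4.755 and 4.436 CPM at low dose, a log2 change of 1.16 (SE 0.21, adjusted p = 9.8e-06). At the medium dose these 2 formulas gave 3.905, 5.992 and 5.4 CPM and 3.641, 3.191 and 3.149 CPM, so the groups' large separation appeared between the medium and the high dose. The herb Aucklandiae Radix differed in that its medium-dose libraries, at 8.44 and 9.175 CPM, were already level with its high-dose libraries at 8.419 and 9.605 CPM, above the low dose at 5.481 and 4.918 CPM.

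The Aucklandiae Radix rise in CXCL8 from low to high dose was 0.79 (SE 0.25, adjusted p = 0.0186). It lost its call in 3 of the 4 refits that left out a library: adjusted p was 0.0598 without low replicate 2, 0.127 without high replicate 3 and 0.142 without low replicate 3. Menthae Herba high-dose libraries had 7.689, 6.287 and 5.712 CPM against 3.755, 4.431 and 4.87 CPM at low dose; the groups did not overlap, but the log2 change of 0.59 did not pass (adjusted p = 0.0533). It passed with the replicate block (0.0438), without the length-tilted libraries (0.00183), with the slope covariate (0.0206) and in DESeq2 (0.0361). Saposhnikoviae Radix had 8.025, 4.745 and 8.964 CPM at high dose and 4.277, 3.457 and 4.302 CPM at low dose, a log2 difference of 0.86 with adjusted p = 0.0766. Its library at 4.745 CPM is the length-tilted high replicate 2, and without it the difference was 1.09 with adjusted p = 0.00592; the difference also passed with the slope covariate (0.0122) and in DESeq2 (0.0152). Polygalae Radix and Soyo-san showed no such separation: their high-dose libraries had 3.607 and 5.253 CPM and 4.141 and 3.651 CPM, and the log2 differences from low dose had 95% intervals of -0.46 to 0.59 and -0.74 to 0.30.

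CXCL2 and CXCL3, ligands of the receptor CXCR2, lie within the same chromosome 4 cluster as CXCL8 and were measured near 1 CPM, with as few as 5 and 3 expected counts in the lowest library. Some of their sequence is shared: 5% of the 100-base windows of CXCL2 and 3.27% of those of CXCL3 occur in the other gene, so the split between them is uncertain there. CXCL2 stood highest with Menthae Herba, at 2.143, 1.707 and 1.603 CPM at high dose against 0.4366, 0.6174 and 0.3313 CPM at low dose and 0.6208, 0.7302 and 0.8051 CPM with vehicle. All 3 high-dose libraries lay above both other groups, and the rise over low dose was 1.97 (SE 0.38, adjusted p = 2.3e-04). CXCL3 rose with the same herb by 1.30 (SE 0.32, adjusted p = 0.00375), from 0.2183, 0.3269 and 0.5963 CPM to 1.092, 0.8383 and 0.9862 CPM; with the compared groups alone this call was lost (adjusted p = 0.0885). Medium-dose Menthae Herba libraries had 0.5767 to 0.637 CPM of CXCL2 and 0.1331 to 0.4238 CPM of CXCL3, within or below the vehicle range for CXCL2 and around it for CXCL3.

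Guibi-tang gave the other rise of both genes. CXCL3 had 0.9828, 1.033 and 1.167 CPM at high dose against 0.3695, 0.3548 and 0.2982 CPM at low dose, a log2 change of 1.62 (SE 0.32, adjusted p = 4.6e-05). CXCL2 had 1.42, 1.307 and 1.309 CPM against 0.7054, 0.7452 and 0.671 CPM, a change of 0.92 (SE 0.36, adjusted p = 0.0324). The CXCL2 groups did not overlap, yet each of the 6 refits that left out a library moved the adjusted p above 0.05, to between 0.054 and 0.079, and it was 0.0513 with no filter on low counts. With Saengmaek-san, where CXCL8 rose most, CXCL2 was 0.97, 1.22 and 1.119 CPM at high dose and 0.8339, 0.5531 and 0.4326 CPM at low dose (0.87, adjusted p = 0.211, but 0.00695 without the length-tilted libraries, 0.0305 with the slope covariate and 0.0186 with a replicate block within the set), and CXCL3 groups overlapped. Saposhnikoviae Radix left CXCL2 at 0.9033, 1.054 and 0.3922 CPM at high dose, spread around the vehicle values, and its CXCL3 was 0.3474 to 0.5272 CPM at high and 0.5138 to 0.7233 CPM at low dose. The single Okbyeongpung-san libraries had 1.938, 0.5058 and 0.1788 CPM of CXCL2 at high, medium and low dose, the last being the lowest value of all 60 libraries; with 1 library a dose this order has no replicate check.

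**Figure D2:**
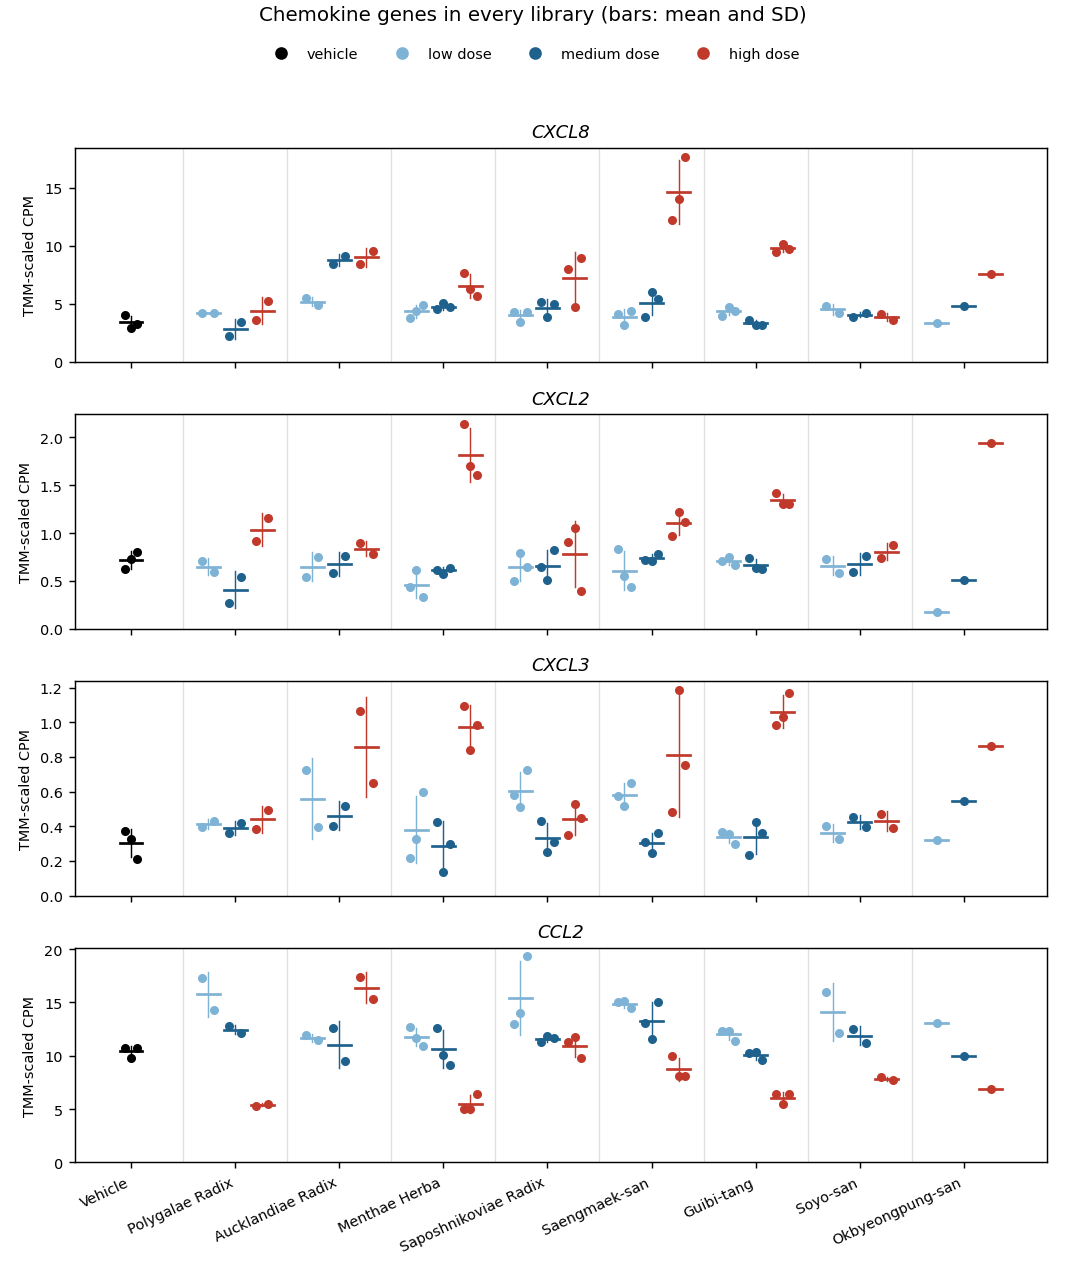
TMM-scaled CPM (vertical axes) of CXCL8, CXCL2, CXCL3 and CCL2 in each library, with 1 point a library and bars for the group mean and SD, by extract (horizontal axis) and dose (colour). CXCL8 at the high dose of Saengmaek-san (12.25 to 17.69 CPM) lies above all other libraries, and CCL2 at high dose lies below low dose in all extracts but Aucklandiae Radix.

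CCL2, the monocyte chemokine MCP-1, fell from low to high dose in 5 of 7 extracts. With Polygalae Radix it went from 17.28 and 14.25 CPM at low dose to 5.293 and 5.502 CPM at high dose, a change of -1.55 (SE 0.19, adjusted p = 1.1e-08), with medium-dose libraries between at 12.78 and 12.15 CPM. With Menthae Herba the high-dose libraries had 5, 5.03 and 6.451 CPM against 12.66, 11.69 and 10.93 CPM at low dose, a change of -1.10 (SE 0.16, adjusted p = 1.6e-06). Both high-dose groups lay wholly below the vehicle libraries at 10.72, 9.817 and 10.72 CPM, and both low-dose groups wholly above them.

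The formulas gave the same order for CCL2. Guibi-tang had 6.407, 5.441 and 6.402 CPM at high dose and 12.36, 12.31 and 11.41 CPM at low dose (-0.98, SE 0.16, adjusted p = 1.1e-06). Saengmaek-san had 9.983, 8.113 and 8.134 CPM against 15.07, 15.12 and 14.44 CPM (-0.77, SE 0.15, adjusted p = 0.00105). Its high-dose library at 9.983 CPM lay within the vehicle range and those at 8.113 and 8.134 CPM below it. All its low-dose libraries lay above that range. Soyo-san had 7.969 and 7.689 CPM against 16.01 and 12.17 CPM (-0.85, SE 0.19, adjusted p = 0.0235). That call was lost in 3 of 4 refits, with adjusted p of 0.27 without high replicate 1, 0.828 without low replicate 1 and 0.421 without high replicate 2; it was also lost with the compared groups alone (0.0981) and with a replicate block within the set (1). Saposhnikoviae Radix had 11.26, 11.74 and 9.748 CPM against 12.96, 13.97 and 19.38 CPM; the groups did not overlap, but the difference of -0.50 (95% interval -0.81 to -0.20) had an adjusted p of 0.181, and 0.033 with the length slope as a covariate. Okbyeongpung-san libraries had 6.891, 9.947 and 13.09 CPM from high to low dose. Aucklandiae Radix ran the other way, with 17.43 and 15.34 CPM at high dose and 11.96 and 11.44 CPM at low dose; the groups did not overlap, but the difference of 0.49 did not pass (adjusted p = 0.0544). It passed, upward, in 6 alternatives, with adjusted p of 0.0434 with RLE size factors, 0.004 without the length-tilted libraries, 0.0195 with the slope covariate, 0.00398 with the compared groups alone, 0.00392 with a replicate block within the set and 0.0342 in DESeq2. Across all extracts, 19 of 19 low-dose libraries were above the highest vehicle library for CCL2, against 12 of 19 at medium and 4 of 19 at high dose. The share of all genes placed so was not counted, and a difference from vehicle cannot be told apart from a difference between library sets.

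IL6, which encodes interleukin 6, rose from low to high dose with Polygalae Radix, Menthae Herba and Guibi-tang. Vehicle libraries had 3.435, 3.407 and 3.813 CPM. Polygalae Radix had 11.3 and 11.54 CPM at high dose against 5.482 and 4.985 CPM at low dose, a log2 change of 1.12 (SE 0.22, adjusted p = 6.5e-05). These were separate by more than the spread of either pair, and the medium-dose libraries, at 4.515 and 5.468 CPM, stayed with the low dose. Menthae Herba had 10.5, 10.18 and 8.013 CPM against 4.759, 3.922 and 3.247 CPM (1.27, SE 0.19, adjusted p = 2.4e-06). Guibi-tang had 12.52, 9.787 and 9.048 CPM against 5.072, 4.613 and 4.212 CPM (1.17, SE 0.18, adjusted p = 9.4e-07). CCL2 fell in the same 3 comparisons.

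IL6 passed in none of the other extracts. Saengmaek-san, which gave the highest CXCL8, had 4.082, 3.769 and 3.84 CPM of IL6 at high dose and 5.838, 5.015 and 4.164 CPM at low dose; the high-dose libraries lay below without overlap, with a difference of -0.36 (95% interval -0.74 to 0.02, adjusted p = 0.343). Aucklandiae Radix had 5.23 and 4.694 CPM against 5.119 and 4.066 CPM, and the interval of the difference ran from -0.35 to 0.58. The interval was -0.34 to 0.42 for Saposhnikoviae Radix and -0.27 to 0.65 for Soyo-san. The Okbyeongpung-san libraries had 9.001, 6.027 and 4.148 CPM from high to low dose. IL6 overlaps STEAP1B (0.467 to 3.69 CPM) and the antisense gene AC073072.1 (0.347 to 1.28 CPM) on the opposite strand; the kit keeps strand, but the strand setting of the counting is not given in the sources used here.

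LIF, which encodes leukemia inhibitory factor, had the most precise changes of the list. Vehicle libraries had 23.18, 20.73 and 21.95 CPM. At high dose Guibi-tang libraries had 99.52, 93.65 and 97.74 CPM, against 25.16, 23.92 and 27.21 CPM at low dose, a change of 1.93 (SE 0.08, adjusted p = 2.0e-23). Polygalae Radix had 85.54 and 93.11 CPM against 31.99 and 27.44 CPM (1.59, SE 0.09, adjusted p = 8.9e-18), and Aucklandiae Radix had 76.11 and 71.19 CPM against 26.55 and 25.9 CPM (1.49, SE 0.09, adjusted p = 5.0e-16). These 7 libraries, from 71.19 to 99.52 CPM, stood apart from the other 53, of which the highest had 38.91 CPM. Medium-dose libraries of the same 3 extracts had 29.59 to 35 CPM, close to their low dose.

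Smaller rises of LIF were measured for Saposhnikoviae Radix and Saengmaek-san. Saposhnikoviae Radix had 38.74, 31.2 and 38.91 CPM at high and 29.28, 27.98 and 23.79 CPM at low dose, a change of 0.43 (SE 0.08, adjusted p = 0.00395). Without low replicate 3, a length-tilted library with the lowest of these values, it was 0.34 with adjusted p = 0.136. The call was also lost with no filter on low counts (0.266), with a replicate block within the set (0.606) and with the compared groups alone (1). Saengmaek-san had 35.93, 37.37 and 33.93 CPM against 28.39, 29.72 and 27.74 CPM (0.32, SE 0.08, adjusted p = 0.00603; 0.178 with no filter on low counts). Menthae Herba libraries were alike at both doses, 30.29, 30.54 and 31.02 CPM against 29.91, 30.11 and 32 CPM, and the 95% interval of the log2 difference was -0.16 to 0.15. Polygalae Radix and Guibi-tang raised both IL6 and LIF. With Menthae Herba, where IL6 rose by 1.27, LIF had that interval around 0, and with Aucklandiae Radix, where LIF rose by 1.49, IL6 had an interval of -0.35 to 0.58. All 57 extract libraries lay above the highest vehicle library for LIF, at low dose too (23.79 to 32 CPM). This cannot be told apart from a difference between library sets, and the share of all genes placed so was not counted. The antisense genes of LIF, LIF-AS1 (0 to 0.144 CPM) and AC004264.1 (0.245 to 1.86 CPM), were low beside it.

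**Figure D3:**
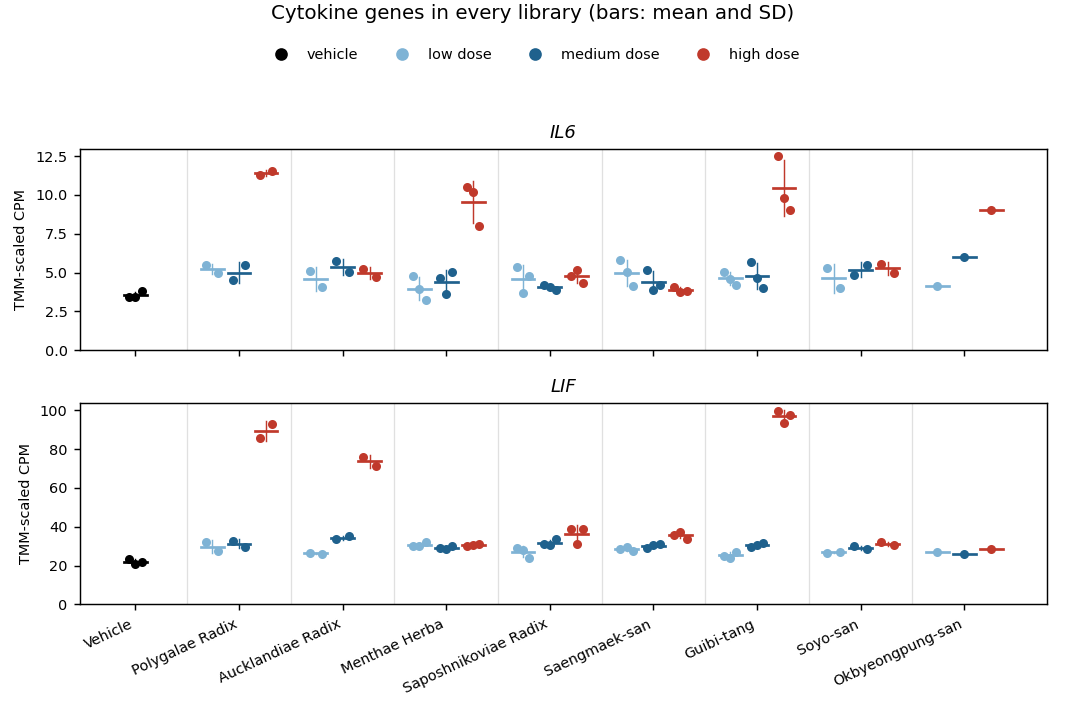
TMM-scaled CPM (vertical axes) of IL6 and LIF in each library, with 1 point a library and bars for the group mean and SD, by extract (horizontal axis) and dose (colour). The high-dose libraries of Polygalae Radix, Aucklandiae Radix and Guibi-tang lie between 71.19 and 99.52 CPM for LIF, and IL6 reaches 12.52 CPM with Guibi-tang.

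NFKBIA, the gene of the inhibitor IkB alpha, was above vehicle in every extract library, at low dose too. The share of all genes placed so was not counted, and a difference from vehicle cannot be told apart from a difference between library sets. The vehicle libraries had 34.43, 34.93 and 34.7 CPM, and the 57 extract libraries 37.54 to 74.01 CPM. The highest were the Polygalae Radix high-dose libraries, at 74.01 and 72.84 CPM against 49.62 and 46.01 CPM at low dose, a change of 0.62 (SE 0.12, adjusted p = 3.9e-05). Guibi-tang had 51.69, 52.37 and 52.16 CPM against 44.31, 43.29 and 43.58 CPM, a change of 0.25 (SE 0.10, adjusted p = 0.0286). The Guibi-tang groups were tight and did not overlap, but all 6 refits without a library gave an adjusted p above 0.05, from 0.0516 to 0.0695, and it was 0.126 with no filter on low counts. In the other 5 extracts the differences were between -0.19 and -0.09 and none passed; with Menthae Herba NFKBIA passed, downward, without the length-tilted libraries (-0.23, adjusted p = 0.0442) and with the slope covariate (-0.24, adjusted p = 0.0122). The single Okbyeongpung-san libraries had 58.66, 49.4 and 45.27 CPM from high to low dose, and the first of these is length-tilted. Within groups, with the Okbyeongpung-san doses taken as 1 group, NFKBIA was higher in libraries with a lower length slope. Pearson's r was -0.66 over 60 libraries, which share groups and scaling. The part of length in NFKBIA levels was not tested beyond the alternatives given at the end.

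TNFAIP3, the gene of A20, was level in most groups. Vehicle libraries had 15.64, 16.55 and 16.27 CPM, and Polygalae Radix high-dose libraries stood apart at 27.17 and 27.26 CPM against 17.24 and 16.84 CPM at low dose. The rise was 0.68 (SE 0.25, adjusted p = 0.0254), and it lost its call in all 4 refits without a library (adjusted p 0.0778 to 0.106), although the pairs were far apart and each tight. TNFAIP3 followed the length slope within groups more closely than any other gene of the list (r = 0.92 over 60 libraries, Okbyeongpung-san doses as 1 group). Its median was 12.88 CPM in the 10 length-tilted libraries and 16.85 CPM in the other 50, and the 2 Polygalae Radix high-dose libraries had the highest slopes, 0.088 and 0.092. Without the tilted libraries the rise was 0.68 with adjusted p = 2.2e-07, and with the slope as a covariate it was 0.28 with adjusted p = 0.0185. The Saposhnikoviae Radix high-dose libraries had 19.32, 7.094 and 19.92 CPM, and the one at 7.094 CPM, the lowest of all 60, has the steepest slope, -0.448. With Guibi-tang the libraries had 21.48, 17.99 and 18.1 CPM at high dose and 16.06, 13.16 and 16.33 CPM at low dose (0.34, adjusted p = 0.172). This difference passed without the length-tilted libraries (0.25, adjusted p = 0.0192), with the compared groups alone (0.0226) and with a replicate block within the set (0.0439), and was -0.01 with the slope as a covariate.

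**Figure D4:**
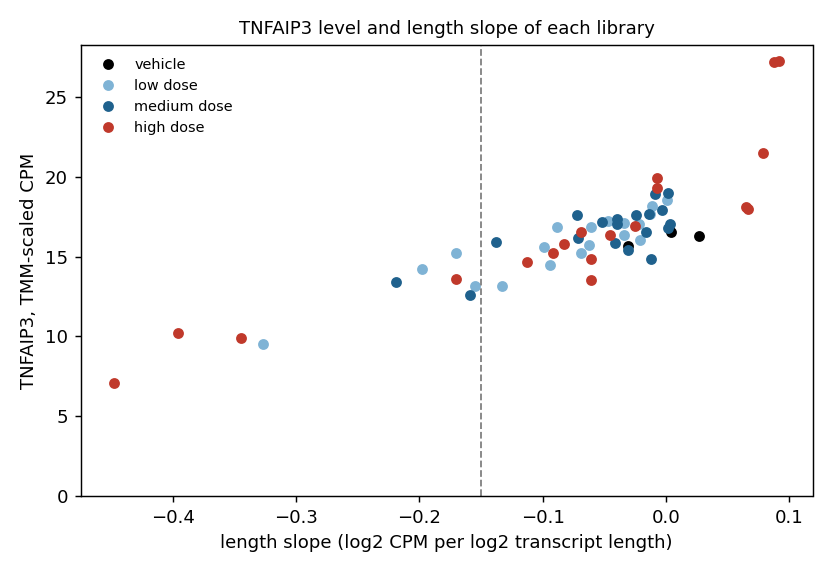
TNFAIP3 in TMM-scaled CPM (vertical axis) against the slope of log2 deviation from vehicle on log2 transcript length (horizontal axis) for 60 libraries, coloured by dose, with the limit of -0.15 drawn as a line. The 2 Polygalae Radix high-dose libraries sit at the upper right near 27.2 CPM, and the 10 length-tilted libraries sit left of the line with a median of 12.88 CPM.

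TNFAIP2, named for its induction by TNF, fell from low to high dose in 4 of 7 extracts. Vehicle libraries had 27.19, 25.39 and 27.33 CPM. Aucklandiae Radix had 14.41 and 16.3 CPM at high dose against 23.37 and 25.08 CPM at low dose (-0.66, SE 0.14, adjusted p = 2.9e-04), with 17.01 and 21.43 CPM at medium dose between them. Menthae Herba had 17.52, 15.18 and 17.71 CPM against 23.93, 23.72 and 23.95 CPM (-0.51, SE 0.11, adjusted p = 0.00101). Guibi-tang had 15.29, 18.02 and 18.07 CPM against 24.05, 22.74 and 25.57 CPM (-0.49, SE 0.11, adjusted p = 2.5e-04). In these 3 extracts the doses did not overlap. Saengmaek-san had 18.11, 18.88 and 18.96 CPM against 24.5, 24.37 and 24.98 CPM (-0.40, SE 0.11, adjusted p = 0.0228), also without overlap, but its adjusted p was 0.058 to 0.0927 in all 6 refits without a library and 0.136 with no filter on low counts. Polygalae Radix differed in direction, with 28.48 and 25.73 CPM at high and 21.57 and 22.14 CPM at low dose, a difference of 0.31 that did not pass (adjusted p = 0.0571). It passed, upward, with RLE size factors (0.0423), without the length-tilted libraries (0.00309), with the compared groups alone (0.0483), with a replicate block within the set (0.0216) and in DESeq2 (0.0279). Okbyeongpung-san had 14.86, 22.97 and 25.53 CPM from high to low dose.

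**Figure D5:**
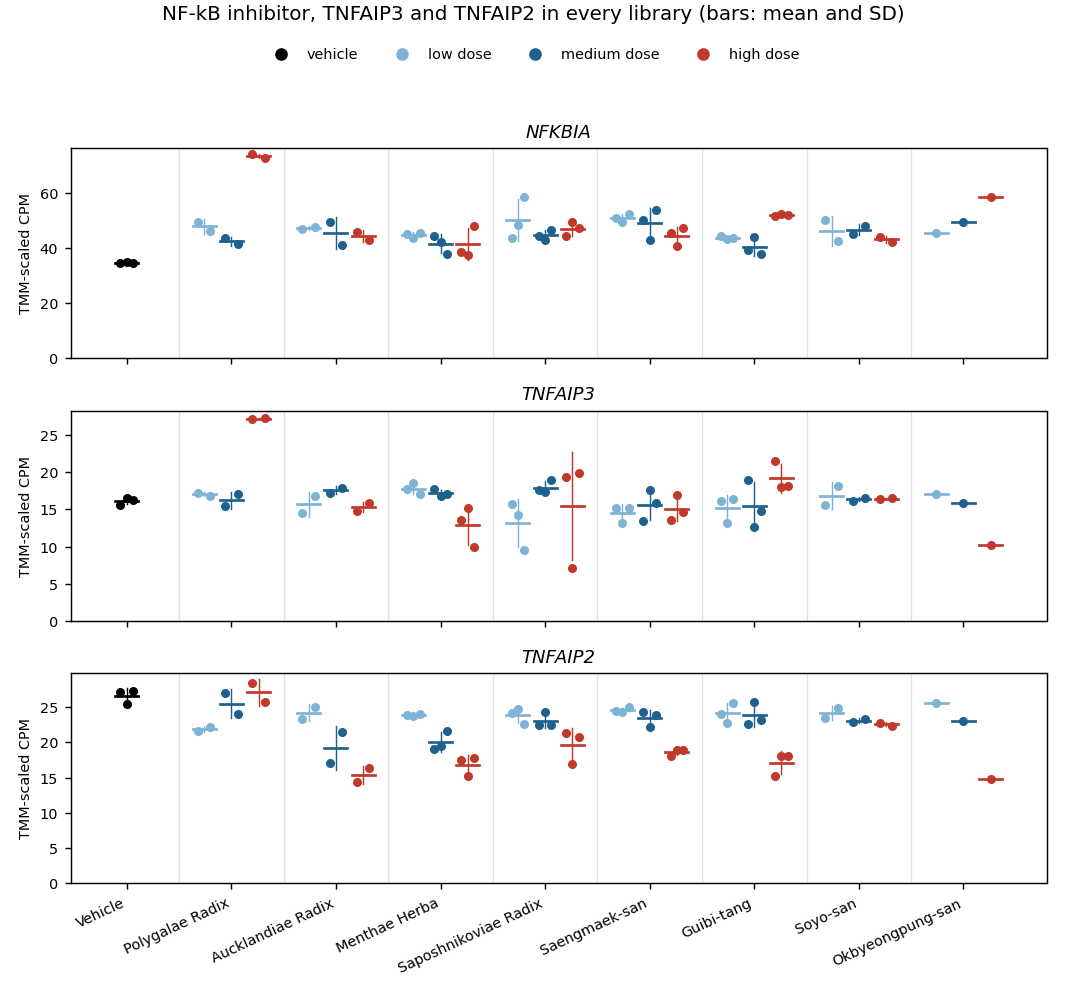
TMM-scaled CPM (vertical axes) of NFKBIA, TNFAIP3 and TNFAIP2 in each library, with 1 point a library and bars for the group mean and SD, by extract (horizontal axis) and dose (colour). NFKBIA lies above the 3 vehicle libraries (34.43 to 34.93 CPM), which are a library set of their own, in all 57 extract libraries. TNFAIP2 at high dose lies below vehicle with every extract but Polygalae Radix.

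Against vehicle the same genes were set beside 3 libraries of another set, shared by all the comparisons, so these are not independent of each other. At high dose LIF rose in 7 of 7 extracts, from 0.48 with Menthae Herba (SE 0.08, adjusted p = 7.3e-06) to 2.14 with Guibi-tang (SE 0.08, adjusted p = 8.4e-25). CXCL8 rose in 5, by 2.10 with Saengmaek-san, 1.51 with Guibi-tang, 1.39 with Aucklandiae Radix, 1.09 with Saposhnikoviae Radix and 0.94 with Menthae Herba, and TNFAIP2 fell in the same 5, by 0.44 to 0.79. NFKBIA rose in 5, IL6 in 3 and CXCL3 in 4, where it stood between 1.41 with Saengmaek-san and 1.79 with Guibi-tang. CCL2 fell in 3, and rose with Aucklandiae Radix by 0.65 (SE 0.17, adjusted p = 0.0023). The counts were 8 of 9 genes for Guibi-tang beside 49.9% of all genes, 7 for Menthae Herba beside 20.9%, 6 for Aucklandiae Radix beside 31.6%, 5 for Polygalae Radix beside 47.5% and 5 for Saengmaek-san beside 15.3%. They were 4 for Saposhnikoviae Radix beside 7.55% and 1, LIF, for Soyo-san beside 1.94%. The counts for Guibi-tang and Menthae Herba include CXCL2 and CXCL3, and those for Aucklandiae Radix and Saengmaek-san include CXCL3. Both genes were kept only through high-dose libraries, so these counts are not independent of the filter. Of these calls, CXCL3, CCL2 and NFKBIA with Aucklandiae Radix were lost without high replicate 2 (adjusted p 0.0985, 0.0527 and 0.111), which took that count from 6 to 3. CXCL2 with Guibi-tang (0.90, adjusted p = 0.0405) was lost in all 6 refits without a library (0.0584 to 0.123) and NFKBIA with Saengmaek-san without high replicate 3 (0.0695). TNFAIP2 with Saposhnikoviae Radix was lost without vehicle replicate 1 (0.0541), vehicle replicate 3 (0.0752) or high replicate 2 (0.14). All 4 calls of high-dose Saposhnikoviae Radix were lost with the compared groups alone (0.717 each), and 5 calls had an adjusted p of 0.0555 to 0.0751 with no filter on low counts: NFKBIA with Aucklandiae Radix, Saposhnikoviae Radix and Saengmaek-san, TNFAIP2 with Saposhnikoviae Radix and CXCL2 with Guibi-tang.

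At medium dose LIF again rose in 7 of 7 extracts, by 0.41 to 0.64, and few other genes of the list passed. It was the only one with Polygalae Radix (beside 3.45% of all genes), Menthae Herba (0.586%), Saposhnikoviae Radix (0.505%), Guibi-tang (5.36%) and Soyo-san (0.194%). Saengmaek-san had 2 of 9, beside 2.54%, with NFKBIA at 0.50 (SE 0.10, adjusted p = 0.00476). Aucklandiae Radix had 4 of 9, beside 3.11%: CXCL8 rose by 1.36 (SE 0.23, adjusted p = 3.3e-04), LIF and NFKBIA rose and TNFAIP2 fell. Its NFKBIA call was lost without any 1 vehicle library (0.103 to 0.123) or medium replicate 2 (0.606), and its TNFAIP2 call without vehicle replicate 1 (0.0736), vehicle replicate 3 (0.0854) or medium replicate 2 (0.531). NFKBIA with Saengmaek-san was lost without medium replicate 3 (0.0715), and LIF with Menthae Herba without vehicle replicate 2 (0.0542). LIF with Soyo-san was lost without vehicle replicate 2 or 3 (0.136 and 0.108) or medium replicate 1 or 2 (0.597 and 0.172).

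At low dose the calls were of LIF, NFKBIA and CCL2. LIF and NFKBIA rose with Polygalae Radix, 2 of 9 beside 0.828% of all genes, and with Saengmaek-san, 2 of 9 beside 2.53%. With Saposhnikoviae Radix CCL2 rose as well, by 0.57 (SE 0.15, adjusted p = 0.0184), 3 of 9 beside 10.2%. LIF alone rose with Menthae Herba, beside 0.301%, and NFKBIA alone with Soyo-san, beside 0.952%. With Aucklandiae Radix edgeR called 0 of 9 beside 0.333% of all genes, while 4 had an unadjusted p under 0.05 and DESeq2 called 1. With Guibi-tang it called 0 beside 1.55%, with 2 at an unadjusted p under 0.05 and 1 called by DESeq2. NFKBIA lost its call in all 5 refits without a library for Polygalae Radix (0.131 to 0.35) and for Soyo-san (0.0645 to 0.746). LIF with Polygalae Radix was lost without vehicle replicate 2 or 3 (0.0717 and 0.0699) or low replicate 2 (0.29). For Saposhnikoviae Radix the CCL2 call was lost without vehicle replicate 2 or 3 (0.0731 and 0.0654) or low replicate 3 (0.303), the LIF call without vehicle replicate 2 or 3 (0.0709 and 0.0574) or low replicate 2 (0.0546), and the NFKBIA call without low replicate 3 (0.0544).

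Okbyeongpung-san could be tested only with its 3 doses pooled. IL6 (0.84, adjusted p = 0.00609), LIF (0.31, adjusted p = 0.0116) and NFKBIA (0.56, adjusted p = 8.5e-04) rose, 3 of 9 beside 7.65% of all genes. Without the high-dose library, which is length-tilted, none of the 3 passed: adjusted p was 0.302, 0.191 and 0.0577, and 0 of 9 genes were called. LIF was also lost without vehicle replicate 2 (0.0698) or 3 (0.0527). Without the low-dose library 6 of 9 passed, CXCL8 (0.85, adjusted p = 0.00702), CXCL3 and TNFAIP2 among them. That refit left the medium-dose library and the length-tilted high-dose library. The share of all genes called in these refits is not given here, so their counts are not read as a result about the list.

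Extracts of 1 set were compared by the difference of their changes from low to high dose. Doses differ within the first pair, so the values stand side by side with that limit. CCL2 changed by 0.49 with Aucklandiae Radix and by -1.55 with Polygalae Radix, a difference of 2.03 (SE 0.27, adjusted p = 6.9e-08). In the same pair IL6, NFKBIA and TNFAIP2 differed by -1.01, -0.71 and -0.97 (adjusted p = 0.0132, 9.7e-04 and 1.0e-04), which made 4 of 9 genes beside 32.7% of all genes. LIF did not pass, with a difference of -0.10 and an interval of -0.36 to 0.17. The IL6 difference was lost without Aucklandiae Radix low replicate 2 (0.0761) or high replicate 3 (0.0538), or without Polygalae Radix low replicate 3 (0.052).

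Saposhnikoviae Radix and Menthae Herba, both at 500 and 20 µg/mL, differed in 4 of 9 genes beside 9.42% of all genes. The change was smaller with Saposhnikoviae Radix for CXCL2 by 1.73 (difference -1.73, adjusted p = 0.0392), for CXCL3 (-1.78, adjusted p = 0.00935) and for IL6 (-1.23, adjusted p = 0.00143), and larger for LIF (0.43, adjusted p = 0.00623). CXCL2 and CXCL3 were kept only through high-dose libraries, so their differences and the count are not independent of the filter. CXCL8, whose change passed in neither, had a difference of 0.27 with an interval of -0.33 to 0.87. All 4 were lost with the compared groups alone (adjusted p 0.112 to 0.419), CXCL2, CXCL3 and LIF with a replicate block within the set (0.0807, 0.0914 and 0.182), and CXCL2 and LIF with no filter on low counts (0.067 and 0.156). The CXCL2 difference was also lost in 7 of 12 refits: without Menthae Herba high replicate 1 or 3 (0.0655 and 0.0575), Menthae Herba low replicate 1 or 3 (0.0765 and 0.112), Saposhnikoviae Radix low replicate 2 or 3 (0.108 and 0.0838) or Saposhnikoviae Radix high replicate 3 (0.147). Without the length-tilted Saposhnikoviae Radix high replicate 2, TNFAIP3 differed too (1.04, adjusted p = 7.4e-04), and without the length-tilted low replicate 3, CCL2 (0.79, adjusted p = 0.0205).

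The formulas Guibi-tang and Saengmaek-san, also at equal doses, differed in 5 of 9 genes beside 33.8% of all genes. IL6 changed by 1.17 with Guibi-tang and by -0.36 with Saengmaek-san, a difference of 1.53 (SE 0.26, adjusted p = 9.2e-06), and LIF by 1.93 and 0.32, a difference of 1.61 (SE 0.11, adjusted p = 8.6e-16). NFKBIA differed by 0.45 (adjusted p = 0.00989) and CXCL3 by 1.15 (adjusted p = 0.0412), while the CXCL8 change was smaller with Guibi-tang (-0.75, adjusted p = 0.0405). CXCL3 was kept only through high-dose libraries, so its difference and the count are not independent of the filter. CCL2 and TNFAIP2 did not pass, with intervals of -0.65 to 0.22 and -0.41 to 0.22. The CXCL8 difference was lost in 7 of 12 refits (up to 0.136): without any 1 Guibi-tang high-dose library, Guibi-tang low replicate 2 or 3, Saengmaek-san low replicate 2 or Saengmaek-san high replicate 3. With no filter on low counts CXCL8, CXCL3 and NFKBIA were lost (0.0778, 0.115 and 0.0592). The CXCL3 difference was lost in 9 of 12 (up to 0.128) and in the fits without the length-tilted libraries (0.123) and with DESeq2 (0.0511), and held without Guibi-tang high replicate 1, Saengmaek-san high replicate 2 or Saengmaek-san low replicate 2.

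The other genes of the pathway came from lists of receptors, signalling adaptors, NF-kB subunits, targets, decay factors and STAT3 signalling genes, 81 of them tested. From low to high dose, 52 of the 81 passed with Guibi-tang, 44 with Polygalae Radix, 41 with Aucklandiae Radix, 27 with Menthae Herba, 10 with Saengmaek-san and 1 with Soyo-san. These counts, and those of each list below, are to be read beside the shares of all genes. Those shares were 50.9% with Guibi-tang, 45.4% with Polygalae Radix, 22.8% with Aucklandiae Radix, 13.8% with Menthae Herba, 4.88% with Saengmaek-san and 0.328% with Soyo-san. For receptors and for NF-kB subunits, kinases and inhibitors, the shares with Guibi-tang and Polygalae Radix were near those of all genes. With Polygalae Radix this held also for other NF-kB targets (11 of 23) and for adaptors and feedback genes (9 of 17). With Aucklandiae Radix 3 of 10 STAT3 signalling genes passed, also near. Of the subunits, kinases and inhibitors, 1 of 13 passed with Menthae Herba and 2 of 13 with Aucklandiae Radix, not above the all-gene shares. With Saposhnikoviae Radix edgeR called 0 of 81 beside 0.156% of all genes, with 6 at an unadjusted p under 0.05 and 0 called by DESeq2. The receptors of the chemokines on the list, CXCR1, CXCR2 and CCR2, were too low to be tested (at most 0.0425 CPM), and TNF itself reached at most 0.111 CPM.

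Of 10 receptor genes tested, 4 rose and 1 fell with Guibi-tang, 3 rose and 1 fell with Polygalae Radix, 3 rose and 2 fell with Aucklandiae Radix, and 3 fell with Menthae Herba. The gene of the interleukin 6 receptor, IL6R, was 6.104 ± 0.0271 CPM (SD, n = 2) at high dose and 1.74 ± 0.09 CPM (n = 2) at low dose of Aucklandiae Radix, a rise of 1.81 (adjusted p = 2.0e-10), and it fell by 0.55 with Menthae Herba (adjusted p = 0.0106). TNFRSF1B, a TNF receptor gene, rose by 1.80 with Guibi-tang (adjusted p = 1.1e-13) and by 1.46 with Polygalae Radix (adjusted p = 8.1e-09). IL1R1, the interleukin 1 receptor gene, rose with Aucklandiae Radix by 1.27 (adjusted p = 0.00217). LIFR, the receptor subunit for LIF, rose with Guibi-tang by 0.98 (adjusted p = 0.0195) and fell with Menthae Herba by 1.08 (adjusted p = 0.0358), where 1 of the 3 high-dose libraries is length-tilted.

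Among 17 adaptors and feedback genes, Aucklandiae Radix raised 8 and lowered none. They include TRAF1, an adaptor of TNF receptors, from 6.582 ± 0.173 CPM to 19.53 ± 0.944 CPM (SD, n = 2 each; 1.57, adjusted p = 9.5e-13), and IRAK2, a kinase of the interleukin 1 pathway (0.94, adjusted p = 2.6e-06). BIRC3, an inhibitor of apoptosis that is itself an NF-kB target, rose with Aucklandiae Radix by 0.77 and with Saengmaek-san by 0.61 (adjusted p = 0.00375 and 0.0207), and fell with Menthae Herba by 1.05 (adjusted p = 1.5e-05). OTULIN, which removes linear ubiquitin chains, rose by 1.22 with Guibi-tang and 1.18 with Polygalae Radix. The counts were 6 higher and 5 lower with Guibi-tang, 6 and 3 with Polygalae Radix, 2 and 2 with Menthae Herba and 1 and 2 with Saengmaek-san. Of 13 genes of NF-kB subunits, kinases and inhibitors, 4 rose and 3 fell with Guibi-tang, 4 and 2 with Polygalae Radix, 1 and 1 with Aucklandiae Radix, and 1 rose with Menthae Herba. RELA, the p65 subunit, rose with Aucklandiae Radix by 0.57 and with Menthae Herba by 0.32 (adjusted p = 4.6e-04 and 0.0241). BCL3 was the 1 gene of this list that fell with Aucklandiae Radix. The inhibitor homologues NFKBIZ and NFKBID rose with Polygalae Radix by 1.21 and 0.85 (adjusted p = 7.2e-04 and 0.00465) and with Guibi-tang by 0.64 and 0.96 (adjusted p = 0.022 and 1.2e-04).

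Of 28 other NF-kB target genes 23 could be tested, and they moved both ways: 10 rose and 9 fell with Aucklandiae Radix, 6 and 10 with Guibi-tang, 2 and 9 with Polygalae Radix, 5 and 8 with Menthae Herba, and 3 and 1 with Saengmaek-san. CSF3, the granulocyte growth factor G-CSF, rose from 0.4232 ± 0.0421 CPM to 4.727 ± 0.231 CPM (SD, n = 2 each) with Aucklandiae Radix (3.48, adjusted p = 3.4e-06) and by 1.83 with Menthae Herba (adjusted p = 0.00688). CSF2, the growth factor GM-CSF, was at 1.034 ± 0.259 CPM against 0.0227 ± 0.032 CPM with Aucklandiae Radix (n = 2, adjusted p = 3.9e-04) and at 1.248 ± 0.115 CPM against 0.0236 ± 0.0205 CPM with Guibi-tang (n = 3, adjusted p = 1.6e-06), the lower level resting on a few reads. Complement C3 fell by 2.73 with Guibi-tang and 2.27 with Polygalae Radix, and VCAM1, a leukocyte adhesion molecule, by 2.82, 2.02 and 1.27 with Guibi-tang, Polygalae Radix and Menthae Herba. IL1A rose with Menthae Herba by 1.96 and IL1B with Saengmaek-san by 0.93 (adjusted p = 3.8e-06 and 0.00249). ICAM1, also an adhesion molecule, was the single gene that rose with Soyo-san (0.55, adjusted p = 0.00367). Of 5 further CXC chemokine genes of the chromosome 4 cluster only CXCL5 could be tested; it rose with Saengmaek-san from 0.5226 ± 0.122 CPM to 1.473 ± 0.228 CPM (SD, n = 3 each; 1.47, adjusted p = 7.9e-05), in the extract where CXCL8 rose most.

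The 7 factors that destabilise cytokine mRNAs divided. ZFP36L1 rose with Guibi-tang by 1.55, Polygalae Radix by 1.00 and Aucklandiae Radix by 0.60 (adjusted p = 5.8e-13, 2.3e-06 and 0.00449). ZFP36L2 rose with Polygalae Radix by 1.13 and Guibi-tang by 1.06 and fell with Aucklandiae Radix by 0.70 and Menthae Herba by 0.56. In all, 3 rose and 4 fell with Polygalae Radix, 2 and 3 with Guibi-tang, 1 and 3 with Aucklandiae Radix, and 2 fell each with Menthae Herba and Saengmaek-san. Of 10 genes of STAT3 signalling, downstream of IL6 and LIF, 3 rose and 5 fell with Guibi-tang, 4 and 3 with Polygalae Radix, 1 and 2 with Aucklandiae Radix and 2 and 2 with Menthae Herba. STAT3 itself fell with Guibi-tang by 1.07 (adjusted p = 4.6e-16) and with Aucklandiae Radix by 0.35 (adjusted p = 0.00289). LIF rose steeply with both. It also did so with Polygalae Radix, where CEBPB, JAK1 and BCL6 changed most among the genes of this list that passed. A link between LIF and STAT3 was not tested. SOCS3, a STAT3 target that inhibits the pathway, fell with Menthae Herba by 0.76 (adjusted p = 3.0e-05). CEBPD, a STAT3 target, fell with Aucklandiae Radix by 2.03 (adjusted p = 1.4e-07). PIM1, of the same list, was the 1 gene that rose with Aucklandiae Radix.

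The likeness of patterns was described by Pearson's r of mean log2 CPM over the 25 groups, which share the scaling, the vehicle and the doses, so r has no p. Within the list CXCL8, CXCL2 and CXCL3 ran together, with r of 0.60 to 0.68. CXCL8 ran against TNFAIP2 (-0.80), and CCL2 against IL6 (-0.76) and CXCL2 (-0.66). IL6 ran with NFKBIA (0.65), CXCL2 (0.64) and LIF (0.60), while IL6 and CXCL8 had r of 0.27. Among 11406 other genes those most like LIF were MFSD2A (0.970), PHLDA1 (0.951) and RNF19B (0.946), and those most like IL6 were TGIF1 (0.888), GDF15 (0.883) and DUSP4 (0.877). CCL2 was most like TMEM109 (0.885), ANKRD1 (0.836) and AGFG2 (0.832), and TNFAIP2 most like LIMK2 (0.915), LZTS1 (0.882) and MN1 (0.876). For TNFAIP3 they were UBP1 (0.949), PLAGL2 (0.942) and ZBTB2 (0.937), and for NFKBIA SUZ12P1 (0.846), WTAP (0.842) and SLBP (0.839). The chemokines of chromosome 4 were most like the following genes: CXCL3 was like BET1 (0.864), TMCO6 (0.841) and TATDN3 (0.840), CXCL2 like C17orf58 (0.818), CYP2R1 (0.816) and EPOR (0.797), and CXCL8 like OSBPL6 (0.801), GOLT1B (0.796) and PPM1K (0.794).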

How the data were processed

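RNA of SW1783 cells was sequenced from directional mRNA libraries with paired-end reads, per the labels' protocols. The authors deposited 1 table of expected counts per Ensembl gene for 60 libraries; the submitters' processing notes list RSEM 1.3.3, STAR 2.7.3a, FastQC 0.11.9, Trim Galore 0.6.5 and build hg38. Symbols were found for 41350 of 60675 identifiers. Expected counts were rounded, genes were filtered by filterByExpr (minimum count 10, minimum total 15), which left 18601, and libraries were scaled by TMM. All 60 libraries entered 1 quasi-likelihood fit (edgeR 4.0.16, limma 3.58.1, R 4.3.3; 37 residual degrees of freedom) with a mean per group, two-sided tests and Benjamini-Hochberg adjustment over all genes; Okbyeongpung-san, with 1 library a dose, was 1 group. Library totals of 19031094 to 37686975 limit CXCL2 and CXCL3 most, at 5 and 3 expected counts in their lowest libraries.

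The members and gene lists were chosen with earlier results of these data known. All members were named; of each other list, up to 3 genes with the largest absolute change among those past the threshold in a comparison could be named, and the 3 genes most like each member among those whose mean log2 CPM reached 2. Alternatives were RLE size factors, DESeq2 1.42.0, no filter on low counts, a fit of only the groups compared, a block for the replicate number, leaving out each library, and the length slope (over 10020 genes of known transcript length) used to drop 10 libraries or as a covariate. Refits without a library kept the gene set and the dispersion trend of the whole fit, and a lone remaining library was assumed to vary like the other groups. The labels do not say that equal replicate numbers share a day or culture; deviations of same-numbered libraries correlated above 0.1 in every pair in only 1 of the comparisons with 3 pairs, medium-dose Saengmaek-san against vehicle (r 0.14 to 0.61). The scripts were tested on simulated counts.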

Additional observations from a re-analysis of the deposited data

Results flagged for a closer look

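In 13 cases the change of a gene from low to high dose differed between 2 extracts of the same library set, by a contrast within the edgeR fit at an adjusted p under 0.05. For Aucklandiae Radix minus Polygalae Radix, whose doses were not equal, the difference on the log2 scale was 2.03 for CCL2, -1.01 for IL6, -0.71 for NFKBIA and -0.97 for TNFAIP2. For Saposhnikoviae Radix minus Menthae Herba it was -1.73 for CXCL2, -1.78 for CXCL3, -1.23 for IL6 and 0.43 for LIF. For Guibi-tang minus Saengmaek-san it was -0.75 for CXCL8, 1.15 for CXCL3, 1.53 for IL6, 1.61 for LIF and 0.45 for NFKBIA. Those of IL6 between the herbs of the first pair, of CXCL2, of CXCL8 and of CXCL3 between the formulas were lost in some refits without a library, and all 4 of Saposhnikoviae Radix minus Menthae Herba with the compared groups alone, as given above. CXCL2 and CXCL3 were kept only through high-dose libraries, so their differences are not independent of the filter.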

How the results depend on the processing

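Counts of the 9 genes called are compared here by setting, the main count first. The share of all genes called under each setting is not given here. A moved count therefore cannot be told apart from a move of the calls over all genes. Without the length-tilted libraries the count against vehicle went from 1 to 2 (Polygalae Radix medium), 2 to 5 (Polygalae Radix low), 0 to 3 (Aucklandiae Radix low), 1 to 3 (Menthae Herba medium), 1 to 2 (Menthae Herba low), 1 to 2 (Saposhnikoviae Radix medium), 3 to 1 (Saposhnikoviae Radix low), 2 to 4 (Saengmaek-san medium), 0 to 2 (Guibi-tang low) and 1 to 5, 3 and 3 (Soyo-san high, medium and low), and for Menthae Herba high against low dose from 5 to 8. With the length slope as a covariate it became 2 for Polygalae Radix medium, Aucklandiae Radix low, Menthae Herba low, Saposhnikoviae Radix medium, Guibi-tang low and each Soyo-san dose, 3 for Menthae Herba medium, and 4 for Saposhnikoviae Radix high against low dose. With the compared groups alone it became 2 and 5 (Polygalae Radix medium and low), 3 (Aucklandiae Radix low), 4 and 2 (Menthae Herba medium and low), 0, 4 and 0 (Saposhnikoviae Radix high, medium and low), 5 (Saengmaek-san low), 1 (Guibi-tang low), 5, 3 and 3 (Soyo-san high, medium and low) and 0 (Okbyeongpung-san), 0 for high against low dose of Saposhnikoviae Radix and Soyo-san, and 0 for the difference of Saposhnikoviae Radix and Menthae Herba. Without the filter on low counts it became 0 for low-dose Polygalae Radix, Menthae Herba and Soyo-san and medium-dose Menthae Herba and Soyo-san, 2 for Aucklandiae Radix medium and Saposhnikoviae Radix high, 1 for low-dose Saposhnikoviae Radix and Saengmaek-san, 0 and 2 for high against low dose of Saposhnikoviae Radix and Saengmaek-san, and 2 for the differences within each of these sets. With DESeq2 it became 1 for low-dose Aucklandiae Radix and Guibi-tang and 2 for medium- and low-dose Menthae Herba and Soyo-san, Saposhnikoviae Radix medium and Saposhnikoviae Radix high against low dose, and with RLE size factors 0 for Soyo-san low. The replicate block moved no count of calls by over 1.5 times; a replicate block within the library set gave 0 for high against low dose of Saposhnikoviae Radix and Soyo-san and 1 for the difference of Saposhnikoviae Radix and Menthae Herba. With 1 library left out, counts ranged from 0 to 1 (Polygalae Radix low, Menthae Herba medium, Soyo-san medium, Soyo-san high against low dose), 3 to 6 (Aucklandiae Radix high), 2 to 4 (Aucklandiae Radix medium), 0 to 2 (Saposhnikoviae Radix high against low dose), 1 to 4 (Saposhnikoviae Radix low), 1 to 2 (Saengmaek-san medium), 0 to 0 (Soyo-san low), 0 to 6 (Okbyeongpung-san) and 3 to 5 (difference of the formulas). In 2 comparisons TNFAIP3 turned direction and passed: it was 0.28 (adjusted p = 0.0467) at high-dose Saposhnikoviae Radix against vehicle without the length-tilted libraries, and 0.30 (adjusted p = 0.0205) at medium-dose Saengmaek-san with the slope covariate. The 9 genes were the same with 1 CPM required of a group mean. Without the length-tilted libraries most counts that moved went up, and without the filter, which adds genes, those that moved went down. Vehicle, Polygalae Radix, Aucklandiae Radix and Soyo-san hold no length-tilted library. Their compared libraries therefore stayed the same, while the fit, the scaling and the adjustment they share changed. Why the counts moved was not tested. With 1 to 3 libraries a group and few reads for CXCL2 and CXCL3, small changes of these genes could not be detected.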
